A study of Homo sapiens with 8 samples.

Results

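The genes described here encode 9 proteins of the tight junction: the claudins CLDN3, CLDN4, CLDN6, CLDN7, CLDN10 and CLDN12, occludin (OCLN), the junctional adhesion molecule JAM-A (F11R) and the scaffold protein ZO-1 (TJP1). They were taken by gene symbol from a list made with earlier results of these data known, and all 9 were found among the 20344 gene symbols that appear in either of 2 deposited tables, one for cell crowding and one for knockdown (KD) of the ETS family transcription factor ETV4. The cells were H9, an established human embryonic stem cell (hESC) line grown on Matrigel in mTeSR1 or TeSR-E8 medium. In the crowding experiment, 2 libraries labelled "small" (low density) were compared with 2 labelled "crowded" (high density), in which cells were confined to small drops of Matrigel. In the ETV4 KD experiment, 2 libraries labelled "Ctrl" (shControl, a control short hairpin RNA) were compared with 2 labelled "ETV4 KD" (shETV4). Which ETV4 hairpin was sequenced is not given in the sources used here, no drug treatment or genetic deletion is named for any group, and neither the labels nor the RNA-seq methods say whether the libraries of a group came from separate cultures (the study states only in general that experiments were repeated independently), so p-values measure the spread between these libraries, which may be technical.

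Tight junctions seal the space between neighbouring epithelial cells near the apical surface. Claudins are membrane proteins that polymerize into the strands of the junction, and each member sets how permeable the strand is to ions. Occludin and JAM-A are membrane proteins of the same complex, and ZO scaffold proteins bind the cytoplasmic ends of claudins and occludin and tie them to actin. Primed hESCs grow as an epithelial sheet, and CLDN6 is known as a claudin of undifferentiated human pluripotent cells.

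Each gene had at least 1 read in each library of its table, and gene counts totalled 50359703 and 59957148 at low density, 55365694 and 62410168 in the crowded libraries, 55028105 and 52155822 with shControl, and 56630652 and 52790532 with shETV4. Levels are given below in FPKM (fragments scaled by transcript length and by library depth), a scale per length on which genes can be compared. The FPKM of the 2 tables were normalized separately, so a level is compared only within its table. Fold changes and p-values come from the counts. A gene is said to have risen or fallen, or to be a differentially expressed gene (DEG), only when its adjusted p was below 0.05 and its absolute log2 fold change was over 0.5. Counts at an unadjusted p under 0.05 are given without the share of all genes, which is at least the share passing on adjusted p. They are therefore not read against a background. In bulk RNA, fewer cells of a type and less RNA per cell cannot be told apart.

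The 2 of the 9 genes that passed these thresholds in either experiment, CLDN3 and CLDN4, lie side by side on chromosome 7 (GRCh37). CLDN3, on the minus strand at 73183327 to 73184600, has 1 exon and therefore no intron. CLDN4, on the plus strand at 73213872 to 73247020, also has 1 exon in its canonical transcript, and 29271 bases separate the annotated spans of both genes. The 250 bases upstream of the start of CLDN3 are shown because CLDN3 is the member that changed most with density, and those upstream of 1 start of CLDN7 because CLDN7 stayed nearly level there (RefSeq sequences placed on GRCh37 by exact match, each written 5′ to 3′ on the gene's own minus strand, at chr7:73184601-73184850 and chr17:7166533-7166782). Capitals mark the GC box GGGCGG or its reverse complement CCGCCC.
CLDN3: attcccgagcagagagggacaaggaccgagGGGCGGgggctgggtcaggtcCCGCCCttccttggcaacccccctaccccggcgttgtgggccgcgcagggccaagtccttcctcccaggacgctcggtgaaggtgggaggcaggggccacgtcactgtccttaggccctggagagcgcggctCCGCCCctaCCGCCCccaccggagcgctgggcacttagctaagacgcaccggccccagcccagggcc
CLDN7: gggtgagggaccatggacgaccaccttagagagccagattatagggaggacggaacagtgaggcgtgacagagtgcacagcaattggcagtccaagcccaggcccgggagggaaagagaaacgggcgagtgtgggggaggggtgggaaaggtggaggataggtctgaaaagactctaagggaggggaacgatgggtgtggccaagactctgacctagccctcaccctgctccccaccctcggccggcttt
The CLDN3 window held 4 matches to GGGCGG on both strands together, and the CLDN7 window shown held none. Of genes not called with density, 1 window each of CLDN10 and TJP1 held 3 and that of CLDN6 held 2. The CLDN12 window and 1 other window each of CLDN10 and TJP1 held none. A link between GC boxes and the response to density was not tested. The window of another CLDN7 start, which overlaps an annotated exon and is not shown, held 1 match to GGGCGG, 4 to CAGGTG and 1 to CCGGAA. Neither window shown held CCGGAA, the core of an ETS family motif, or CAGGTG, an E-box letter string, and no motif match overlapped another. In the RefSeq table of GRCh38.p14, 8 of the 9 genes were found, with 14 windows in all. GGGCGG or its reverse complement occurred in 9 of the 14 windows, from 7 genes with CLDN7 among them, and in 42.6% of the 35116 windows of all genes. CAGGTG or CACCTG occurred in 4 of the 14 windows, from CLDN7, OCLN and TJP1, and in 17.5% of all windows. CCGGAA or TTCCGG occurred in 1 of the 14 windows, that of the other CLDN7 start, and in 14.5% of all windows. The window upstream of CLDN4, at 73245076 to 73245325, overlaps an exon of other annotated CLDN4 transcripts, and it held 1 GC box and neither of the other strings.

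The genes spanned a wide range of levels, as the plot of FPKM by library shows. CLDN6 was the most abundant in each of the 4 groups, with a mean of 326 ± 3.47 FPKM at low density and 281 ± 20.5 at high density (SD, n = 2), and 220 ± 19.5 with shControl and 244 ± 18.0 with shETV4 (SD, n = 2). F11R and CLDN7 followed at 48.0 to 63.2 FPKM in group means, then TJP1 at 23.2 to 27.3 and CLDN12 at 14.4 to 17.3. CLDN10, CLDN4, OCLN and CLDN3 had group means of at most 7.81 FPKM. Nearly all neighbours in this order were separated, in that the libraries of one gene did not overlap those of the next. The exceptions were OCLN and CLDN10 at low density and CLDN4 and CLDN10 at high density, whose libraries overlapped. F11R stood above CLDN7 in both crowding groups and with shControl. With shETV4 CLDN7 stood above F11R, although its lower library lay close to the higher library of F11R. CLDN3 was the lowest of the 9 at low density, with shControl and with shETV4, and stood above CLDN4, CLDN10 and OCLN at high density.

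**Figure D1:**
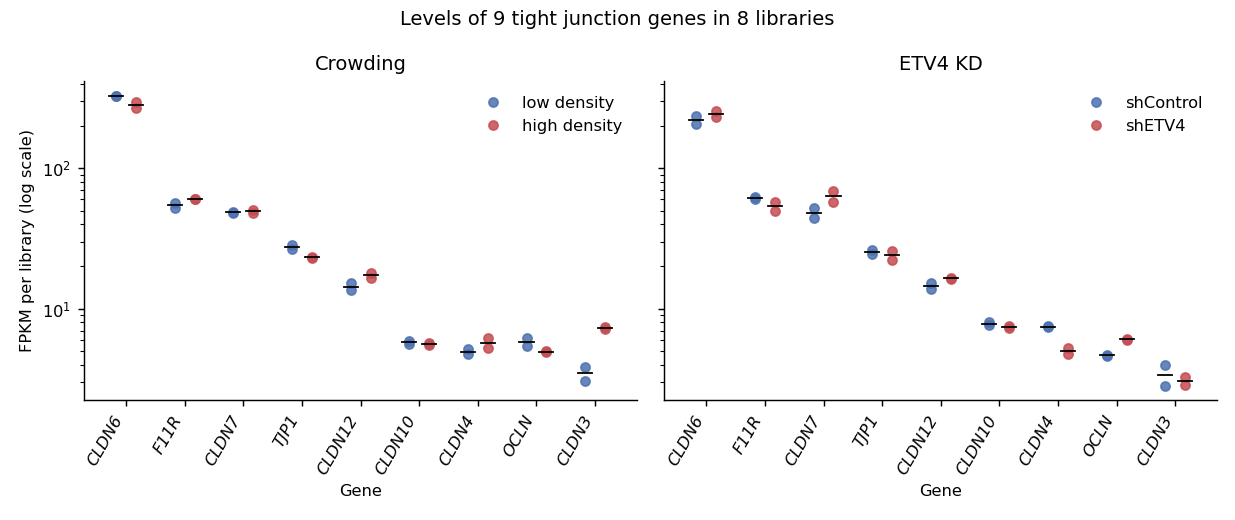
FPKM of the 9 tight junction genes in each library (points, log axis) with the mean of the 2 libraries (line), by group, for crowding (left) and ETV4 KD (right). CLDN6 is at 206 FPKM or more in each library, and CLDN3 is the gene whose high-density points stand farthest above its low-density points.

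Claudin message in these cells was mostly CLDN6. The 14 claudins listed in each table summed to 411 and 410 FPKM at low density, 388 and 361 in the crowded libraries, 292 and 328 with shControl and 329 and 365 with shETV4. CLDN6 made up 80.0 and 79.0% of that sum at low density and 76.1 and 73.8% at high density. In the knockdown table its share was 70.6 and 71.2% with shControl and 70.3% in both shETV4 libraries. CLDN7 held the second largest share, with 11.8 and 11.9% at low density, 12.98 and 13.4% in the crowded libraries, 15.05 and 15.9% with shControl and 17.6 and 18.8% with shETV4. Thus both high-density libraries had a lower CLDN6 share and a higher CLDN7 share than both low-density libraries, and both shETV4 libraries had a higher CLDN7 share than both controls. CLDN7 itself overlapped between the densities (48.4 and 48.7 against 50.4 and 48.3 FPKM), while the sum was lower at high density. Without CLDN6 the sum was higher there, at 92.8 and 94.8 FPKM against 82.1 and 86.1 at low density. FPKM gave higher density changes than the counts for CLDN7 (log2 fold change 0.02 against -0.03) and F11R (0.15 against 0.09). How far this difference of scale enters the sum without CLDN6 was not tested. The 6 claudins described here together made up 97.0 to 98.3% of the sum in the 8 libraries. CLDN2, CLDN8, CLDN14, CLDN16, CLDN17, CLDN18, CLDN20, CLDN22, CLDN24 and CLDN25 were in neither table.

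Crowding was asked about first, since the study set out to learn how density alters hESC transcription. CLDN3 rose 2.01-fold at high density and was the only 1 of the 9 genes called. None of the 9 fell by edgeR or by DESeq2, and 3 were lower at an unadjusted p under 0.05. The background is broad, since 16.1% of the 17672 genes tested were called (10.7% up and 5.47% down), so 1 of 9 is not above it. By adjusted p alone, 5 of the 9 genes passed (2 higher, 3 lower), against 39.7% of all genes tested (19.4% higher, 20.3% lower). The FPKM of 7 of the 9 did not overlap between the densities (4 higher, 3 lower), against 70.2% of all genes (41.2% higher, 29.0% lower). The median log2 fold change of the 9 genes was -0.03, against 0.003 for all genes tested.

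CLDN3, a barrier-forming claudin, measured 3.06 and 3.88 FPKM at low density and 7.13 and 7.45 at high density, from 225 and 342 reads and from 570 and 679 reads. Both high-density libraries lay above both low-density libraries, as for 41.2% of all genes tested. The log2 fold change was 1.01 (SE 0.14, adjusted p = 7.80e-06), and the gene was also called with any 1 library left out. The other claudins differed less. CLDN4, a close relative that also tightens strands, measured 4.73 and 5.17 FPKM at low density and 5.23 and 6.25 at high density. The groups did not overlap but nearly touched, and its log2 fold change of 0.16 (SE 0.11) did not pass (adjusted p = 0.295). The ratio of CLDN3 to CLDN4 FPKM was 0.648 and 0.751 at low density and 1.36 and 1.19 at high density, below 1 in the former libraries and above 1 in the latter.

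CLDN6 measured 329 and 324 FPKM at low density and 296 and 266 at high density, so both high-density libraries were lower. The log2 fold change of -0.27 (SE 0.06, adjusted p = 5.68e-04) passed the test on p and stayed under the fold threshold. In absolute terms this was a difference of group means of 326 against 281 FPKM, larger than the whole level of any of the other claudins except CLDN7. CLDN7, a claudin that also occurs along lateral membranes, measured 48.4 and 48.7 FPKM at low density and 50.4 and 48.3 at high density. These libraries overlapped, and the log2 fold change was -0.03 (SE 0.06, adjusted p = 0.703). CLDN12, which lacks the PDZ-binding tail by which most claudins bind ZO proteins, measured 13.5 and 15.2 FPKM at low density and 16.5 and 18.0 at high density. Its groups did not overlap, and its log2 fold change of 0.21 (SE 0.07, adjusted p = 0.0174) lay under the fold threshold, and the adjusted p was 0.335 without the first low-density library. CLDN10, which forms paracellular ion pores, measured 5.64 and 5.93 FPKM at low density and 5.70 and 5.57 at high density, with overlapping libraries and a log2 fold change of -0.09 (SE 0.09, adjusted p = 0.427).

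Among the partners of claudins, OCLN measured 5.45 and 6.21 FPKM at low density and 5.04 and 4.89 at high density. Both crowded libraries were lower, with a log2 fold change of -0.28 (SE 0.07, adjusted p = 0.00409), under the fold threshold, and without the second low-density library the adjusted p was 0.159. TJP1 measured 28.3 and 26.4 FPKM at low density and 23.3 and 23.0 at high density. Again both crowded libraries were lower, and the log2 fold change of -0.30 (SE 0.06, adjusted p = 3.09e-04) was under the fold threshold. F11R, an immunoglobulin-type adhesion molecule that helps to set up polarity, measured 56.8 and 52.3 FPKM at low density and 60.6 in both high-density libraries. Its groups did not overlap in FPKM, yet its log2 fold change of 0.09 (SE 0.06, adjusted p = 0.199) did not pass.

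**Figure D2:**
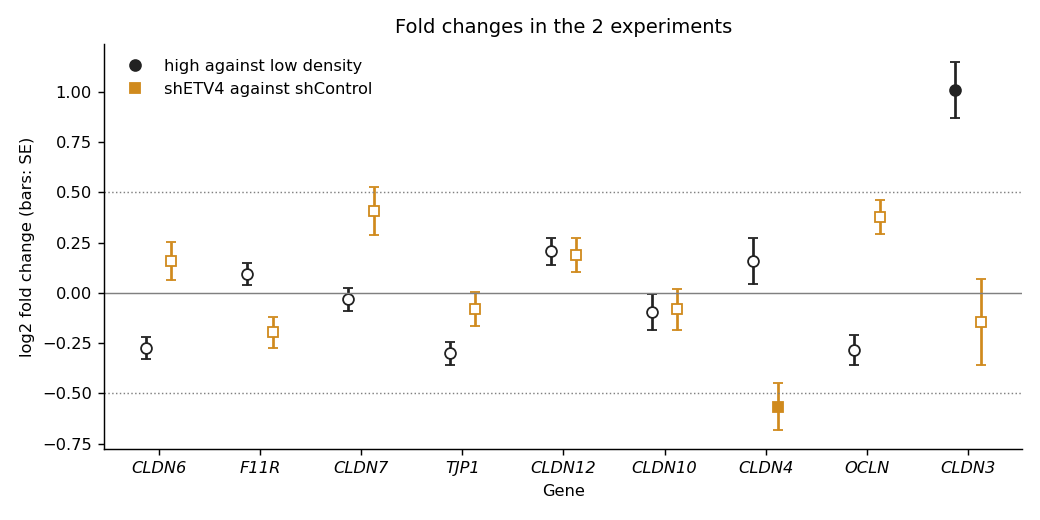
Log2 fold changes from the counts (points) with their SE (bars) for each gene, high against low density (circles) and shETV4 against shControl (squares). Filled symbols are DEGs, which are CLDN3 with density and CLDN4 with ETV4 KD, and dotted lines mark the fold threshold of 0.5.

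The ETV4 KD libraries address whether lowering ETV4 alters the same genes. ETV4 itself measured 90.8 and 95.1 FPKM with shControl and 45.6 and 40.9 with shETV4, a log2 fold change of -1.15 (SE 0.07, adjusted p = 1.60e-04), so the libraries match their labels. At high density ETV4 measured 54.2 and 53.9 FPKM, against 73.2 and 72.6 at low density (log2 fold change -0.49, SE 0.06, adjusted p = 9.42e-07). These are RNA values. The study proposes that crowding lowers ETV4 protein through reduced stability, which these libraries do not measure.

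CLDN4 was the only 1 of the 9 genes called after ETV4 KD, and it fell. None of the 9 rose by edgeR or by DESeq2, and 2 were higher at an unadjusted p under 0.05. Of all 17879 genes tested, 13.0% were called, 5.88% up and 7.1% down. By adjusted p alone, 3 of the 9 passed (2 higher, 1 lower), against 21.5% of all genes tested (10.6% higher, 10.9% lower). This number rested on single libraries, being 0 without the first control, 1 without the second, 5 without the first shETV4 library and 2 without the second. The FPKM of 6 of the 9 did not overlap between the hairpins (3 higher, 3 lower), against 63.3% of all genes (31.8% higher, 31.5% lower). The median log2 fold change of the 9 was -0.08, against -0.001 for all genes tested.

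CLDN4 measured 7.50 and 7.38 FPKM with shControl and 5.23 and 4.80 with shETV4, from 861 and 788 reads and from 587 and 517 reads. Both shETV4 libraries lay below both controls, as for 31.5% of all genes tested. The log2 fold change was -0.57 (SE 0.12, adjusted p = 0.0133). This call rests on both control libraries, since the adjusted p was 0.0997 without the first and 0.0529 without the second, while the log2 fold change stayed between -0.60 and -0.53 with any 1 library left out. CLDN3, its neighbour on chromosome 7, measured 3.95 and 2.84 FPKM with shControl and 2.87 and 3.26 with shETV4. The libraries overlapped, the spread between the controls was wide, and the log2 fold change of -0.14 (SE 0.21, adjusted p = 0.663) did not pass.

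CLDN7 measured 43.9 and 52.1 FPKM with shControl and 57.8 and 68.5 with shETV4. Both shETV4 libraries were higher, with a log2 fold change of 0.41 (SE 0.12, adjusted p = 0.0416) under the fold threshold. The value depended on single libraries: it was 0.53 (adjusted p = 0.00778) without the second control and 0.55 (adjusted p = 0.00173) without the first shETV4 library, which would make CLDN7 a DEG, and 0.25 (adjusted p = 0.1) without the second shETV4 library. OCLN measured 4.72 and 4.64 FPKM with shControl and 6.08 and 6.04 with shETV4, both shETV4 libraries above both controls. Its log2 fold change was 0.38 (SE 0.09, adjusted p = 0.0181), also under the fold threshold, and the adjusted p was 0.116 without the first control and 0.152 without the second. CLDN6 measured 206 and 233 FPKM with shControl and 231 and 257 with shETV4, and these libraries overlapped (log2 fold change 0.16, SE 0.09, adjusted p = 0.255). Its log2 fold change ran from 0.05 to 0.26 with 1 library left out, with an adjusted p of 0.0308 without the first shETV4 library.

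The remaining 4 genes did not pass after ETV4 KD in the main fit. In a fit with the replicate number as a block, CLDN12 (adjusted p = 0.0272) and F11R (adjusted p = 0.00308) passed on p, under the fold threshold. CLDN10 and TJP1 did not pass there either. CLDN12 measured 13.8 and 15.2 FPKM with shControl and 16.6 and 16.4 with shETV4, without overlap (log2 fold change 0.19, SE 0.08, adjusted p = 0.141). CLDN10 measured 7.62 and 7.999 FPKM with shControl and 7.25 and 7.49 with shETV4 (log2 fold change -0.08, SE 0.10, adjusted p = 0.608). TJP1 measured 26.4 and 24.6 FPKM with shControl and 25.9 and 22.3 with shETV4, with overlapping libraries (log2 fold change -0.08, SE 0.08, adjusted p = 0.521). F11R measured 62.2 and 60.6 FPKM with shControl and 57.6 and 49.5 with shETV4, lower in both shETV4 libraries (log2 fold change -0.20, SE 0.08, adjusted p = 0.109). Its log2 fold change was -0.28 (adjusted p = 0.0140) without the first shETV4 library and -0.12 (adjusted p = 0.292) without the second.

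Whether the genes responded differently to density and to ETV4 KD was tested directly, in a fit of all 8 libraries on the 17790 genes tested from both tables. The 2 experiments share no library. The contrast was the log2 fold change with density minus that with ETV4 KD, and 27.5% of all genes were called (15.0% up and 12.5% down). Of the 9 genes, 3 were called, and 6 passed on adjusted p alone (3 higher, 3 lower), against 38.5% of all genes (18.8% higher, 19.7% lower). CLDN3 differed by 1.15 (SE 0.26, adjusted p = 0.00421) and CLDN4 by 0.72 (SE 0.16, adjusted p = 0.00421), both higher with density than with ETV4 KD. OCLN differed in the other direction, by -0.67 (SE 0.11, adjusted p = 6.70e-04), from -0.28 with density and 0.38 with ETV4 KD. These 3 calls remained with any 1 of the 8 libraries left out. CLDN6 (-0.44, adjusted p = 0.0109), CLDN7 (-0.45, adjusted p = 0.0247) and F11R (0.28, adjusted p = 0.0357) passed on p and stayed under the fold threshold, and with 1 library left out their adjusted p reached 0.0641, 0.114 and 0.169 in that order. CLDN6 became a call without the first high-density library (-0.52), the second control (-0.52) or the first shETV4 library (-0.54), and CLDN7 without the second control (-0.57) or the first shETV4 library (-0.59). The number of the 9 passing on adjusted p was 3 without the second high-density library and 3 without the first control. TJP1 (-0.23, adjusted p = 0.0972), CLDN10 (-0.02, adjusted p = 0.918) and CLDN12 (0.01, adjusted p = 0.935) did not pass.

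Other genes of the tight junction gave a frame for these values. Of 53 further tight junction genes listed, 42 were tested in each experiment. Crowding called 4 of them up and 2 down, and 20 passed on adjusted p alone (7 higher, 13 lower), against 39.7% of all genes tested (19.4% higher, 20.3% lower). Their median log2 fold change was -0.02. Hence 9.52% of these genes rose, near the 10.7% of all genes tested, and 4.76% fell, near the 5.47%.

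TJP3, which encodes ZO-3, changed most among them. TJP3 measured 2.51 and 2.77 FPKM at low density and 9.27 and 9.82 at high density, a 3.47-fold rise (log2 fold change 1.79, SE 0.09, adjusted p = 2.44e-12). It measured 3.89 and 3.94 FPKM with shControl and 2.94 and 2.89 with shETV4, lower in both shETV4 libraries and under the fold threshold (log2 fold change -0.42, SE 0.12, adjusted p = 0.0382), and the difference between both responses was 2.21 (SE 0.14, adjusted p = 8.01e-07).

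**Figure D3:**
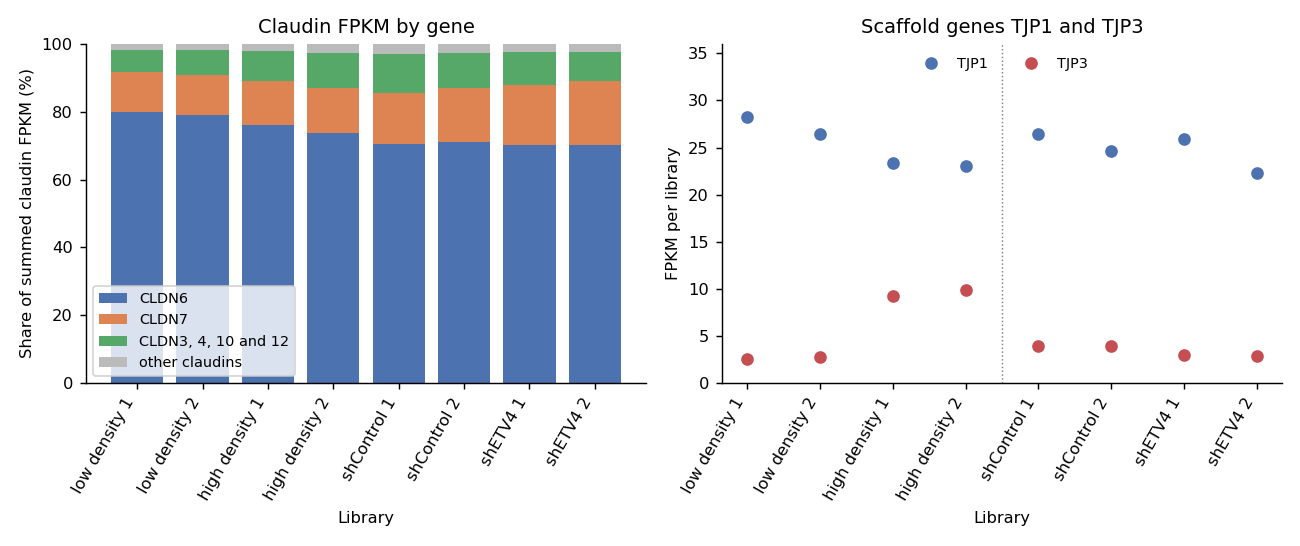
Share of the summed FPKM of 14 claudins held by each gene or group of genes in each library (left, bars from 0 to 100%), and FPKM of the scaffold genes TJP1 and TJP3 in each library (right, points). CLDN6 fills 70.3 to 80.0% of each bar, and the TJP3 points at high density stand above those at low density.

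CLDN19, a claudin known from kidney and eye, measured 1.66 and 1.74 FPKM at low density and 2.50 and 3.03 at high density (log2 fold change 0.65, SE 0.13, adjusted p = 3.76e-04). It fell after ETV4 KD, from 3.09 and 3.04 FPKM to 1.99 and 1.64 (log2 fold change -0.79, SE 0.15, adjusted p = 0.00913), and its responses differed by 1.44 (adjusted p = 1.74e-04). JAM2, a relative of F11R, rose with density from 1.09 and 0.891 FPKM to 1.69 and 1.84 (log2 fold change 0.95, SE 0.15, adjusted p = 3.48e-05). MAGI2, a membrane-associated scaffold, rose from 1.40 and 1.35 FPKM to 2.60 and 2.62 (log2 fold change 0.87, SE 0.09, adjusted p = 2.61e-07). The angiomotin-like genes, whose proteins bind actin and YAP, were the 2 that fell. AMOTL1 fell from 9.96 and 9.93 FPKM to 5.97 and 5.53 (log2 fold change -0.85, SE 0.06, adjusted p = 1.03e-09). AMOTL2 fell from 16.1 and 16.3 FPKM to 9.05 and 7.57 (log2 fold change -1.02, SE 0.07, adjusted p = 1.15e-08).

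After ETV4 KD, 2 of the 42 rose and 3 fell, with 11 passing on adjusted p alone (5 higher, 6 lower) and a median log2 fold change of -0.10. So 4.76% rose and 7.14% fell, near the 5.88% and 7.1% of all genes tested, of which 21.5% passed on adjusted p alone. ARHGEF2, whose protein is held at junctions by cingulin, rose from 8.51 and 8.96 FPKM to 16.0 and 18.4 (log2 fold change 0.98, SE 0.10, adjusted p = 0.00103). PARD6B, a polarity adaptor, rose from 2.02 and 2.51 FPKM to 3.05 and 3.43 (log2 fold change 0.52, SE 0.14, adjusted p = 0.0347), but was not called without the first control (0.39, adjusted p = 0.264) or the second shETV4 library (0.41, adjusted p = 0.0789). CGNL1, paracingulin, fell from 11.4 and 11.3 FPKM to 8.88 and 7.15 (log2 fold change -0.51, SE 0.10, adjusted p = 0.00968), and was not called without the first control (-0.497) or the second shETV4 library (-0.39). CLDN11 also fell, at under 1 FPKM.

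YBX3, a nucleic acid binding protein that binds ZO-1, was the most abundant of the listed cytoplasmic proteins, and its responses differed. It measured 111 and 108 FPKM at low density and 81.4 and 82.0 at high density (log2 fold change -0.48, SE 0.06, adjusted p = 1.17e-06), and 92.7 and 94.7 FPKM with shControl and 121 and 119 with shETV4 (log2 fold change 0.36, SE 0.07, adjusted p = 0.00948). Both values lay under the fold threshold, while the difference between them was called (-0.85, SE 0.08, adjusted p = 1.67e-05), also with any 1 library left out. LSR, a tricellular junction protein and the most abundant of the listed membrane proteins, measured 64.8 and 66.2 FPKM at low density and 64.0 and 52.0 at high density (log2 fold change -0.23, SE 0.08, adjusted p = 0.0454), and the adjusted p reached 0.307 with 1 library left out. It measured 40.2 and 40.8 FPKM with shControl and 44.2 and 56.9 with shETV4 (log2 fold change 0.33, SE 0.12, adjusted p = 0.0916), and with 1 library left out the log2 fold change ran from 0.11 to 0.53, called in 1 of 4 fits. Its responses differed by -0.57 (SE 0.17, adjusted p = 0.0231), a call that remained in only 2 of the 8 fits with 1 library left out, over which the difference ran from -0.77 to -0.34.

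**Figure D4:**
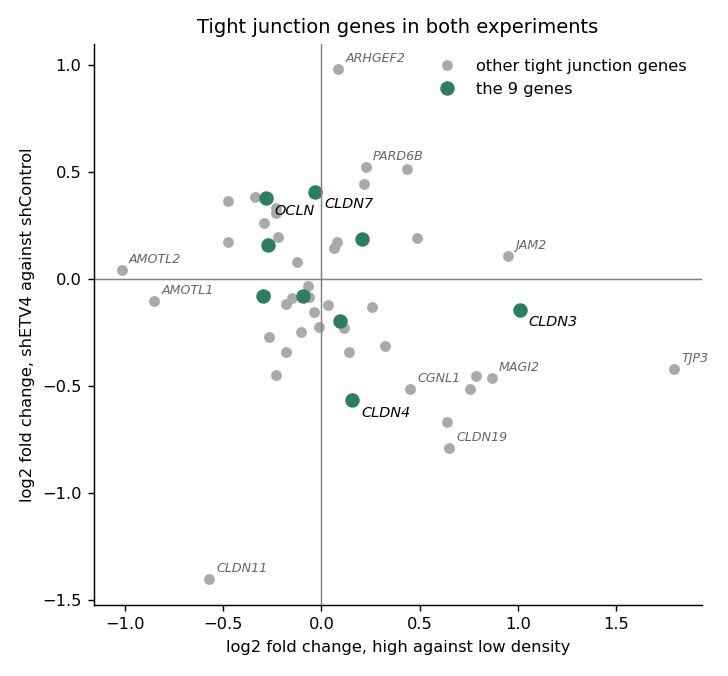
Log2 fold change with density (x axis) against that with ETV4 KD (y axis) for the 9 genes (green) and 42 other tight junction genes (grey), 1 point per gene. CLDN3 and TJP3 lie far to the right near or below 0 on the y axis, CLDN4 lies below 0, and AMOTL1 and AMOTL2 lie to the left.

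The genes of neighbouring junctions were read against the same background of 10.7% of all genes called up and 5.47% called down with density, and whether they differ from the tight junction genes was not tested. Of 12 adherens junction genes, 3 fell with density and 0 rose by edgeR or by DESeq2, while 1 was higher and 6 were lower on adjusted p alone, against 19.4% and 20.3% of all genes, and 1 was higher at an unadjusted p under 0.05. CDH2 (N-cadherin) fell from 18.4 and 18.2 FPKM to 6.87 and 6.33 (log2 fold change -1.53, SE 0.07, adjusted p = 4.66e-13). VCL (vinculin), an actin linker shared with focal adhesions, fell from 154 and 151 FPKM to 91.8 and 84.6 (log2 fold change -0.85, SE 0.05). CTNNB1 (beta-catenin), the most abundant of them in that experiment, measured 137 and 135 FPKM at low density and 127 and 123 at high density (log2 fold change -0.17, SE 0.05, adjusted p = 0.00865), under the fold threshold. NECTIN3 fell by 0.56 on the log2 scale (SE 0.07), and not past the fold threshold without the second high-density library (-0.47). CDH1 (E-cadherin), chosen after its values were seen, measured 48.0 and 45.9 FPKM at low density and 64.3 and 57.3 at high density (log2 fold change 0.32, SE 0.06, adjusted p = 3.67e-04). It measured 47.0 and 44.2 FPKM with shControl and 39.0 and 33.9 with shETV4 (log2 fold change -0.32, SE 0.08, adjusted p = 0.0259). Both values lay under the fold threshold, and that after ETV4 KD ran from -0.39 to -0.25 with 1 library left out. After ETV4 KD none of the 12 was called by edgeR or DESeq2, and 8 passed on adjusted p (4 higher, 4 lower), against 21.5% of all genes tested. At an unadjusted p under 0.05, 4 were higher and 6 lower. The share of all genes at that unadjusted threshold is not given here and is at least 21.5%. The 8 kept their direction with any 1 library left out, but each pass on adjusted p rested on single libraries.

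Of 10 desmosome genes tested with density, 2 fell, the armadillo-repeat plaque proteins JUP (log2 fold change -0.56, SE 0.09) and PKP2 (-0.63, SE 0.07), and JUP was not past the fold threshold without the second high-density library (-0.40). After ETV4 KD, PKP4 fell from 18.3 and 19.1 FPKM to 12.7 and 11.3 (log2 fold change -0.64, SE 0.08, adjusted p = 0.00187), and of the 11 tested 2 fell in all, against 7.1% of all genes. Among 12 tested regulators of epithelial identity, ELF3, an epithelial ETS factor, rose with density from 2.42 and 2.50 FPKM to 4.33 and 4.10 (log2 fold change 0.72, SE 0.11, adjusted p = 1.77e-05), and ST14, the membrane protease matriptase, fell from 13.1 and 12.7 FPKM to 8.86 and 7.15 (log2 fold change -0.74, SE 0.09, adjusted p = 3.09e-06). EPCAM, which binds CLDN7, measured 144 and 133 FPKM at low density and 140 and 137 at high density (log2 fold change -0.05, SE 0.06, adjusted p = 0.519), and 120 and 122 FPKM with shControl and 133 and 139 with shETV4 (log2 fold change 0.18, SE 0.07, adjusted p = 0.121). Of 12 of these regulators tested after ETV4 KD, 1 rose, against 5.88% of all genes, at under 1 FPKM (GRHL3, chosen after its values were seen), and it was called in 2 of the 4 fits with 1 library left out. Repressors of epithelial genes were low: 2 of 6 fell with density, against 5.47% of all genes tested (SNAI2 and ZEB1, chosen after their values were seen). On adjusted p alone, 1 was higher and 2 were lower with density, against 19.4% and 20.3% of all genes. The 2 that fell were at under 1 FPKM, and their calls rested on single libraries. With 1 library left out, the log2 fold change ran from -1.40 to -0.87 for SNAI2 and from -1.84 to -1.35 for ZEB1. None of 7 repressors was called after ETV4 KD by edgeR or DESeq2, against 13.0% of all genes, with 1 higher at an unadjusted p under 0.05. The most abundant of them, TCF4, measured 9.51 and 9.23 FPKM at low density and 10.96 and 11.2 at high density.

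Markers of pluripotent cells were abundant in all 8 libraries. POU5F1 (OCT4) measured 1158 and 1112 FPKM at low density, 1094 and 1045 in the crowded libraries, 1016 and 1181 with shControl and 1288 and 1405 with shETV4, and all 8 pluripotency markers listed were in both tables. With density none of the 8 was called by edgeR or DESeq2, against 16.1% of all genes tested, and 3 were higher and 2 lower at an unadjusted p under 0.05. After ETV4 KD 1 of the 8 rose and 2 fell, against 5.88% and 7.1% of all genes tested. LIN28A rose (log2 fold change 0.51, adjusted p = 0.00228), and TDGF1 (-0.82, adjusted p = 3.86e-04) and DNMT3B (-0.82, adjusted p = 4.64e-04) fell.

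Some markers of other cell types were called in both comparisons, and their part in the results above was not tested. Over all genes tested, 10.7% were called up and 5.47% down with density, and 5.88% up and 7.1% down after ETV4 KD. Fibroblast markers summed to 118 and 120 FPKM at low density, 84.5 and 85.2 in the crowded libraries, 155 and 158 with shControl and 128 and 118 with shETV4. THY1, which hESCs also express, was the most abundant, DCN and LUM were in neither table, and of 5 tested 2 fell with density, while 1 rose and 2 fell after ETV4 KD. THY1 (log2 fold change -0.63) and PDGFRB (-1.58) were those that fell with density. After ETV4 KD COL1A1 rose (1.00), and THY1 (-0.81) and PDGFRB (-0.54) fell, PDGFRB being called in only 1 of the 4 fits with 1 library left out. Neuroectoderm markers summed to 21.3 and 23.0 FPKM at low density, 27.1 and 19.97 in the crowded libraries, 8.47 and 10.04 with shControl and 23.8 and 29.9 with shETV4, led by OTX2, which rose after ETV4 KD (log2 fold change 2.73), while PAX6 was not in the knockdown table. Of 7 tested, 1 rose and 2 fell with density, and 2 rose after ETV4 KD. Of the 2 that fell, LHX2, at under 1 FPKM and chosen after its values were seen, was called in none of the 4 fits with 1 library left out (adjusted p = 0.0738 to 0.152). The 1 that rose, SOX1, also under 1 FPKM and chosen in that way, was called in 3 of the 4. SOX3 fell with density, from 4.18 and 4.56 FPKM to 1.89 and 2.26 (log2 fold change -1.13), and rose after ETV4 KD, from 3.63 and 3.73 FPKM to 4.92 and 6.56 (log2 fold change 0.65), a call that remained in 2 of the 4 fits with 1 library left out. Mesendoderm markers summed to 4.45 and 4.80 FPKM at low density, 1.25 and 1.06 in the crowded libraries, 2.32 and 3.40 with shControl and 1.37 and 2.07 with shETV4, led by CER1, with SOX17 in neither table. Of 5 tested 2 fell with density, and of 3 tested 1 fell after ETV4 KD, CER1 (log2 fold change -1.09), which was called in 2 of the 4 fits with 1 library left out. Trophoblast and surface ectoderm markers summed to 2.39 and 2.55 FPKM at low density, 3.46 and 3.32 in the crowded libraries, 2.55 and 3.38 with shControl and 2.26 and 2.62 with shETV4. KRT7 was the most abundant of them, CGA, TFAP2A, KRT5, KRT14 and HAND1 were in neither table, and none of 3 tested was called in either experiment by edgeR or DESeq2, with 1 higher with density at an unadjusted p under 0.05.

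Genes with the most similar pattern across the 8 libraries were sought for the most abundant claudin and for the scaffold, by the Euclidean distance between log2 CPM values centred within each experiment, among 12474 genes with a mean of at least 1 FPKM in both. The nearest to CLDN6 were PSMD3 (distance 0.0533), CLPTM1, SNUPN, CHCHD3 and ARPC5L (0.0768), against a median of 0.522 over all genes compared. The nearest to TJP1 were SLC31A1 (distance 0.0550), DCBLD2, TPP2, RAPGEF2 and EXTL3 (0.0867), against a median of 0.523. No other tight junction gene of the lists was among these 10 genes, and a small distance describes 8 libraries of 2 experiments only.

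Some of these counts share sequence with other genes, and the sources used here do not give a strand setting for the counting. CLDN6, on chromosome 16 at 3064713 to 3070072 on the minus strand, has 2 exons, overlaps TNFRSF12A on the other strand, and lies 206 bases from CLDN9. Its transcript is 96.2% identical to a processed pseudogene over 663 bases and 85.7% identical to CLDN9 over 516 bases, yet CLDN9 measured under 1 FPKM in each library. OCLN, on chromosome 5 at 68788119 to 68853931 on the plus strand with 9 exons, is 99.7% identical over 679 bases to its pseudogene OCLNP1, so the OCLN counts are uncertain in that part. CLDN7, on chromosome 17 at 7163222 to 7167302 on the minus strand with 4 exons, overlaps ELP5 on the other strand and shares 269 identical bases with an unnamed gene on its own strand. CLDN10, on chromosome 13 at 96085858 to 96232013 on the plus strand with 5 exons, shares 1558 identical bases with DZIP1 on the other strand. CLDN12, on chromosome 7 at 90013035 to 90142716 on the plus strand with 4 exons, overlaps GTPBP10 and CDK14 on the same strand and shares 179 identical bases with an unnamed gene there. TJP1, with 28 exons, lies on chromosome 15 at 29991571 to 30261118 on the minus strand, and F11R, with 10 exons, on chromosome 1 at 160965001 to 160991133 on the minus strand, where it shares 1855 identical bases with an unnamed overlapping gene. No transcript of another gene matched CLDN3 or CLDN4 at an identity of at least 95% over at least 100 bases.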

How the data were processed

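The 8 libraries hold poly-A RNA prepared with a stranded kit. The authors trimmed reads with TRIMMOMATIC, aligned them to GRCh37 with HISAT2 2.1.0 and assembled known transcripts with StringTie 2.1.3b, and they deposited, per gene and library, the read count (not normalized) and the FPKM (scaled by length and depth). The columns named Test were taken as shETV4. Not used were 16 further columns of per-sample values and the authors' fold changes and p-values.

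Within each table, genes kept by filterByExpr were normalized by TMM and tested on their counts by the robust quasi-likelihood method of edgeR 4.0.16 (R 4.3.3), and p-values were adjusted by Benjamini-Hochberg across the whole table. The difference between the responses was fitted on all 8 libraries. Depth makes counting error small beside replicate spread for genes with many reads. It does not for genes with few reads, such as CLDN3 with 225 and 342 reads at low density. With 2 libraries against 2, an exact permutation test of 1 gene cannot go below p = 0.333. Log2 CPM of replicates correlated at 0.991 to 0.994 across genes. The named genes are the 9 members, and from each junction or epithelial list the called genes with a mean of at least 1 FPKM and the 3 most abundant, of which mostly the first is given. CDH1 and the cell type markers named were added. Values of some genes picked by this rule are left out here. The members, lists and tests were chosen with earlier results of these data known. Positions come from GENCODE lifted to GRCh37 (18598 of 20344 symbols matched), promoters from RefSeq, and sequence identity from BLAST 2.17.0. Alternatives were DESeq2 1.42.0 (Wald test, size factors), limma 3.58.1 on log2(FPKM + 0.5), pseudocounts of 0.1 and 1, other filters, glmTreat, a fold threshold of 1, the replicate number as a block and leaving out each library.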

Additional observations from a re-analysis of the deposited data

How the results depend on the processing

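The CLDN3 call with density, and the CLDN3 and OCLN directions in the difference between both responses, held under each alternative run. Over the 9 genes and 3 comparisons, 368 alternative values kept their direction and call, 7 lost the call, 7 gained it and 14 reversed, all 14 of uncalled values near 0. CLDN7 with density was 0.0233 by limma on log2(FPKM + 0.5), with or without the FPKM minimum, 0.0235 with a pseudocount of 0.1, 0.0231 with a pseudocount of 1, and -0.0697 to 0.00986 with 1 library left out. Leaving out 1 library moved CLDN3 with ETV4 KD between -0.37 and 0.13, the CLDN10 difference between -0.0729 and 0.0331 and the CLDN12 difference between -0.0653 and 0.0994. Among uncalled values that kept their direction, it moved CLDN4 with density between 0.03 and 0.27 and F11R with density between 0.03 and 0.16. TJP1 with ETV4 KD moved between -0.16 and -0.000551.

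The number of genes called with density, 2851, became 1135 at an absolute log2 fold change over 1, 1104 with glmTreat, 1717 with limma on log2(FPKM + 0.5), 1256 with a pseudocount of 1 and 1839 with no minimum, and 2407 to 3408 with 1 library left out. With ETV4 KD, 2321 became 761 at over 1, 380 with glmTreat, 1325 with a pseudocount of 1 and 1502 with no minimum, and 1587 to 3390 with 1 library left out. CLDN4, the 1 member called after ETV4 KD, was not called at over 1, with a pseudocount of 1 (-0.49) or with glmTreat (adjusted p = 0.802), so 0 members were called there, and 0 to 2 with 1 library left out. For the difference, 4890 genes became 2142 at over 1 (3875 to 5814 with 1 library left out), and 3 members became 1 at over 1 (3 to 5 with 1 library left out). Over the other junction and epithelial genes named, 161 alternative values other than leave-outs kept their call and 37 lost it. By limma on log2(FPKM + 0.5) PARD6B (0.44) and CGNL1 (-0.49) after ETV4 KD and NECTIN3 (-0.48) with density were not called, and PARD6B was called in none of the 4 limma fits. The cause of these moves was not tested beyond the stricter thresholds themselves and the smaller number of libraries.

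Deviations of libraries with the same replicate number correlated little across all genes (-0.04 for crowding and 0.09 for ETV4 KD). This does not settle whether the numbers pair the libraries, since the block raised the calls after ETV4 KD from 2321. With the replicate block, 2874, 2901 and 5056 genes and 1, 1 and 3 members were called for density, ETV4 KD and the difference. On adjusted p alone, 6 members passed after ETV4 KD with the block, against 3 without it. Those added were CLDN6 (adjusted p = 0.0141), CLDN12 (adjusted p = 0.0272) and F11R (adjusted p = 0.00308), each under the fold threshold.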
